A study of Mus musculus with 4 samples.

Results

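The genes described here are 10 members of the vascular growth and hypoxia program of the stomach, out of 46095 gene symbols counted. They are the ligands *Vegfa* and *Vegfb*, the receptors *Flt1* and *Kdr*, the angiopoietins *Angpt1* and *Angpt2*, the hypoxia factors *Hif1a* and *Epas1*, and the endothelial markers *Pecam1* and *Cdh5*. They were taken by name and not by a threshold on a measured value, with earlier results of these data known. Gastric RNA came from 12-week-old mice on a C57BL/6 background, with 2 WT samples and 2 samples labelled MYC-KI, which carry Atp4b-cre together with MycOE. In the MYC-KI mice, Cre recombinase under the *Atp4b* promoter acts in the parietal cell lineage and switches on a human *c-Myc* transgene. The WT mice are Myc fl/fl littermates, which carry the floxed allele without Cre. Endothelial cells are therefore not the cells in which the transgene is switched on by design.

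VEGF ligands are secreted by epithelial and stromal cells and bind receptor tyrosine kinases on endothelial cells, where signaling drives the sprouting and survival of vessels. KDR is the main signaling receptor, while FLT1 binds VEGF-A tightly and also binds VEGF-B. Angiopoietins act on the endothelial receptor TEK, with ANGPT1 stabilizing vessels and ANGPT2 loosening them in most settings. HIF1A and EPAS1 (HIF-2alpha) are transcription factors that are degraded when oxygen is available and accumulate in hypoxia, so that the RNA level of either is not a measure of hypoxia itself. The gastric mucosa holds a dense capillary network around its glands.

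Every MYC-KI value below depends on which name its count belongs to. As deposited, the MYC-KI counts stand beside the wrong names for most genes, and they were assigned in row order to the names sorted by character code, while the WT columns stayed as they were. Between the genotypes, Pearson's r of mean log2(count + 1) across genes (genes are not independent) was 0.524 before and 0.985 after this step. Of the members, 1 (*Epas1*) keeps its place, and the others move by up to 397 rows. Over the 61 rows around each member, r between the genotypes lay between 0.965 and 0.984 after the step. When the MYC-KI counts were slid by up to 5 rows to either side, r peaked at the assigned row for all 10 members and reached 0.522 at most at any other row. *Flt1*, *Kdr* and *Hif1a* move by a single row, so the counts deposited beside them are those of *Flt3*, *Kdsr* and *Hif1an*.

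**Figure D1:**
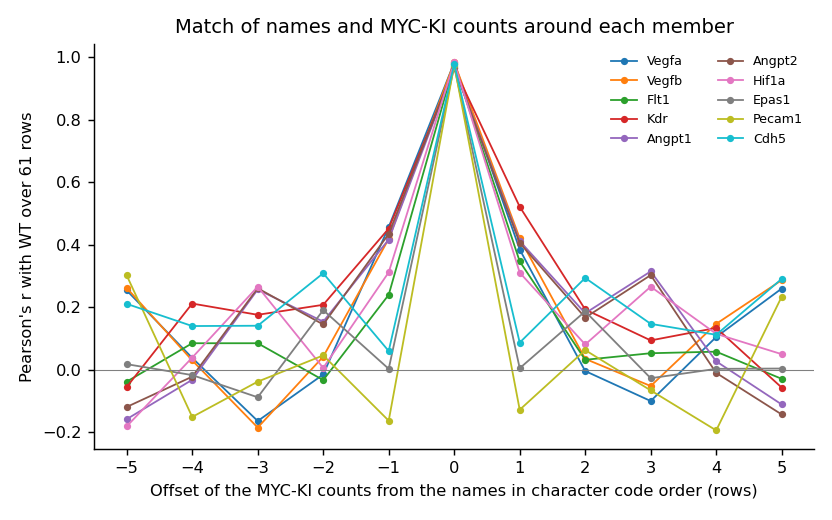
Pearson's r between mean log2(count + 1) of WT and MYC-KI over 61 rows around each member (y axis) is plotted against the offset, in rows, of the MYC-KI counts from the names in character code order (x axis), with 1 line per member. All 10 lines peak at offset 0, at 0.965 or above, and lie at 0.522 or below elsewhere.

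The counts summed to between 30260305 and 41463647 per sample. *Atp4b*, a subunit of the parietal cell proton pump and the source of the Cre promoter, fell from 87583 and 69469 reads in the WT samples to 1301 and 2310 in the MYC-KI samples (adjusted p = 0.00635). For mouse *Myc*, 1062 and 759 reads were counted in WT against 735 and 1091 in MYC-KI (log2 fold change -0.35, adjusted p = 0.163), and the transgene has no row of its own. *Xist* and *Ddx3y* placed WT replicate 2 apart in sex, with 17846 *Xist* and 5 *Ddx3y* counts, whereas the other 3 samples had 85 to 201 *Xist* and 1861 to 2623 *Ddx3y* counts. Nothing in the labels says that the samples of a genotype came from separate litters or cages, so p-values measure the spread between these samples.

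Across the members, 6 genes fell and 1 rose in MYC-KI stomach, against 5.08% of all 17643 tested genes that were lower, 5.65% that were higher and 10.7% in either direction. Calls required an adjusted p under 0.05 in edgeR's quasi-likelihood test together with a change of more than 1.5-fold. The genes that fell were *Vegfb*, *Flt1*, *Kdr*, *Epas1*, *Pecam1* and *Cdh5*, and *Hif1a* rose. DESeq2 also called 1 member higher and 6 lower, against 8.23% higher and 9.49% lower of 18257 genes. With the replicate number added as a block, edgeR called 0 members, and 27 genes higher and 87 lower in all. The adjusted p of the 7 members lay between 0.0541 and 0.0718 in that fit. All 10 members passed the filter on low counts. Their median log2 fold change was -0.85, beside 0.01 over all tested genes. Fits that leave out a sample compare a single sample with a pair, assume that the lone sample varies like the other genotype, and take the spread from that pair alone. The WT pair was the closer one (chi-square per degree of freedom 28.9, against 97.9 for MYC-KI). With the spread of the WT pair the 7 calls were made again, whereas without WT replicate 1 or WT replicate 2 edgeR called no gene of the table, the adjusted p of the 7 lay between 0.196 and 0.238, and 1 higher and 6 lower members had an unadjusted p under 0.05. At that unadjusted p, 1814 genes were higher and 1740 lower of 18333 tested without WT replicate 1, and 1856 and 1554 of 18615 without WT replicate 2. Values are given as CPM after TMM normalization (reads scaled to the effective library size), first for each sample and then as log2 fold change of MYC-KI against WT with its standard error (SE).

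**Figure D2:**
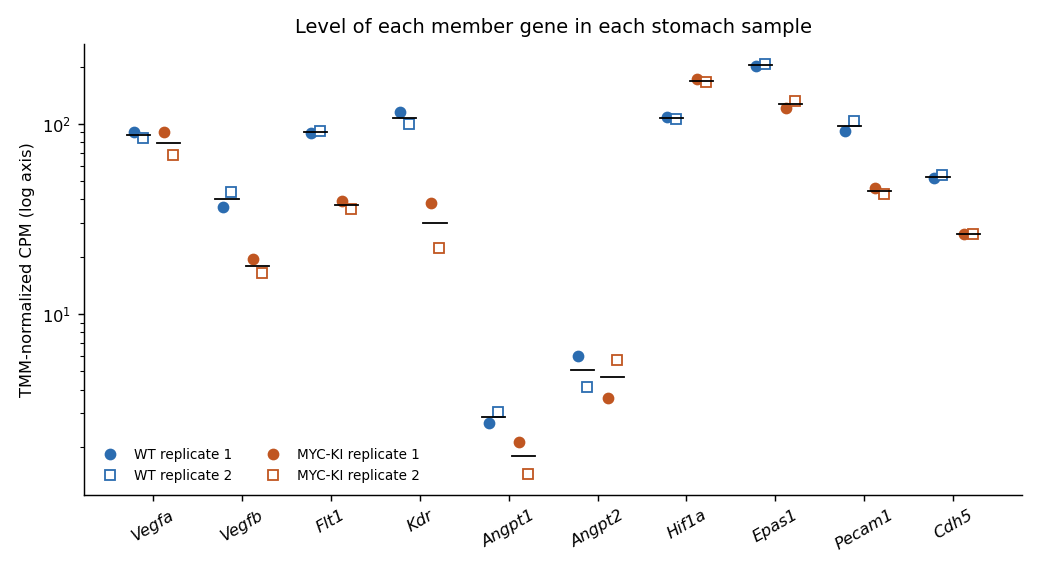
TMM-normalized CPM on a log axis (y) is shown for each member (x). Circles are replicate 1 and squares replicate 2 of WT (blue) and MYC-KI (orange), and the black bars are the means of 2 samples. The genotypes are separate for *Vegfb*, *Angpt1* (not called), both receptors, both hypoxia factors and both endothelial markers, and they overlap for *Vegfa* and *Angpt2*. Separation of 2 samples from 2 cannot go below p = 0.333 in an exact two-sided permutation test. Its share over all tested genes is not given here.

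*Vegfa* (chr17:46016993-46032369, minus strand, GRCm38) encodes the principal angiogenic VEGF ligand. It had 90.4 and 83.8 normalized CPM in the WT samples and 90.7 and 68.3 in the MYC-KI samples. The highest and the lowest value both belonged to MYC-KI, so the genotypes overlapped. The log2 fold change was -0.13 (SE 0.16, adjusted p = 0.610), with a 95% interval from -0.56 to 0.30 that leaves room for a modest fall or rise. *Vegfb* (chr19:6982473-6987651, minus strand), a ligand of FLT1 linked to metabolically active tissue, had 36.6 and 43.7 normalized CPM in WT and 19.5 and 16.3 in MYC-KI. Both transgenic values lay below both WT values. The fall was 2.24-fold (log2 fold change -1.16, SE 0.16, adjusted p = 0.0279).

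Both VEGF receptors of the list fell, and whether they fell more than *Vegfb* was not tested. *Kdr* (chr5:75932827-75978458, minus strand) had 114.9 and 99.4 normalized CPM in WT and 38.2 and 22.3 in MYC-KI. MYC-KI replicate 2 was the lower of the pair, and no value overlapped between the genotypes. The log2 fold change of -1.83 (SE 0.29, adjusted p = 0.0335) was the lowest of the 10 members and a 3.55-fold fall, and leaving out single samples gave values from -2.26 to -1.49. *Flt1* (chr5:147561604-147726011, minus strand) had 89.1 and 91.6 normalized CPM in WT and 39.2 and 35.5 in MYC-KI. Its samples were close together within each genotype and far apart between them. *Flt1* fell 2.42-fold (log2 fold change -1.27, SE 0.09, adjusted p = 0.0150). The counts are per gene, so the soluble and the membrane form of FLT1 were not separated.

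The angiopoietins were the least abundant members. *Angpt1* (chr15:42424723-42676977, minus strand) was represented by 90 and 85 reads in WT and by 72 and 64 in MYC-KI, or 2.68 and 3.05 against 2.12 and 1.43 normalized CPM. The MYC-KI values were lower without reaching the threshold (log2 fold change -0.69, SE 0.35, adjusted p = 0.250, 95% interval -1.64 to 0.26). *Angpt2* (chr8:18690263-18741562, minus strand) was represented by 201 and 115 reads in WT and by 123 and 256 in MYC-KI, or 5.99 and 4.12 against 3.63 and 5.73 normalized CPM. Each genotype held a high and a low sample, and the values overlapped. No difference was detectable (log2 fold change -0.11, SE 0.36, adjusted p = 0.858), and the interval from -1.08 to 0.86 is wide. *Angpt1* shares 737 of its 5205 exonic bases with the antisense gene *Gm17473*, which has no row here. *Angpt2* lies within *Mcph1* on the opposite strand, without overlap of exons, and whether the counting used strand is not given in the sources used here.

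The pair of hypoxia factors moved in opposite directions. *Hif1a* (chr12:73901375-73947530, plus strand) had 108.6 and 106.5 normalized CPM in WT and 171.5 and 165.8 in MYC-KI, with a narrow spread in either genotype. It rose 1.57-fold (log2 fold change 0.65, SE 0.08, adjusted p = 0.0228). *Epas1* (chr17:86753700-86833410, plus strand), which is abundant in endothelial cells, had 200.5 and 205.2 normalized CPM in WT and 120.8 and 132.1 in MYC-KI. Both MYC-KI values were below both WT values. It fell 1.6-fold (log2 fold change -0.68, SE 0.09, adjusted p = 0.0255), and scaling by library size alone gave a log2 fold change of -0.46, under the threshold. Its row needs no reassignment of names. *Hif1a* shares 330 of its 5896 exonic bases with the antisense gene *Gm15283*, whose row held at most 4 counts in any sample, and 148 with the protein-coding gene *Gm49321* on the same strand, which has no row here.

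Both endothelial markers fell. *Pecam1* (chr11:106654217-106750628, minus strand), the adhesion molecule CD31 of endothelial cells, platelets and some leukocytes, had 91.7 and 103.1 normalized CPM in WT and 45.7 and 42.9 in MYC-KI. The fall was 2.20-fold (log2 fold change -1.14, SE 0.10, adjusted p = 0.0180). *Cdh5* (chr8:104101625-104144511, plus strand), the VE-cadherin of endothelial junctions, had 51.9 and 53.5 normalized CPM in WT and 26.3 in each MYC-KI sample. It fell 2.01-fold (log2 fold change -1.0, SE 0.09, adjusted p = 0.0180). In neither gene did the genotypes overlap, and WT replicate 2, which differs in sex, lay beside WT replicate 1. Normalized CPM are relative to the other RNA of the tissue. Fewer endothelial cells, less of these RNAs per endothelial cell and more RNA from other cells cannot be told apart.

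Ratios of counts within a sample do not depend on the scaling of the libraries. With 2 samples against 2, an exact two-sided permutation test cannot go below p = 0.333, so the ratios are given as a description. *Pecam1* to *Cdh5* was 1.77 and 1.93 in WT and 1.74 and 1.63 in MYC-KI, and *Flt1* to *Pecam1* was 0.972 and 0.889 in WT and 0.858 and 0.829 in MYC-KI. Both were slightly lower in both transgenic samples, as was *Flt1* to *Cdh5* with 1.72 and 1.71 in WT and 1.49 and 1.35 in MYC-KI. *Kdr* to *Cdh5* was 2.21 and 1.86 in WT and 1.45 and 0.849 in MYC-KI, lower in both transgenic samples. *Vegfa* to *Kdr* rose from 0.786 and 0.843 in WT to 2.38 and 3.06 in MYC-KI, and *Vegfa* to *Pecam1* from 0.985 and 0.813 to 1.99 and 1.59. Both ratios of *Vegfa* were higher in both MYC-KI samples than in either WT sample. *Vegfb* to *Flt1* was 0.411 and 0.477 in WT and 0.497 and 0.459 in MYC-KI, an overlap. *Hif1a* to *Epas1* was 0.542 and 0.519 in WT and 1.42 and 1.26 in MYC-KI, so the order of the hypoxia factors turned over in both transgenic samples.

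**Figure D3:**
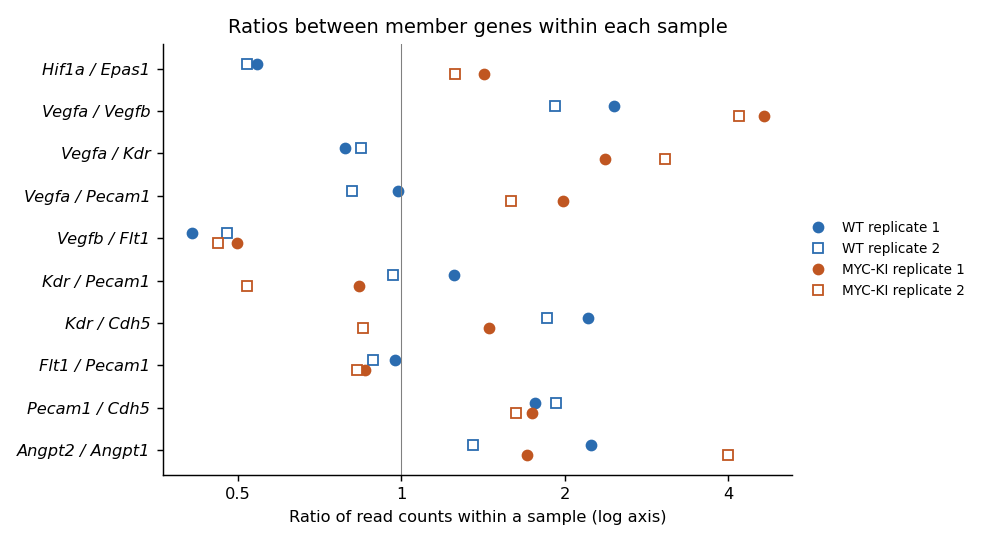
Ratios of read counts between member genes within a sample (x, log axis) are shown for 10 gene pairs (y), with WT in blue, MYC-KI in orange, replicate 1 as circles and replicate 2 as squares. *Hif1a* to *Epas1* lies below 1 in both WT samples and above 1 in both MYC-KI samples, and *Vegfb* to *Flt1* overlaps between the genotypes.

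Levels between genes were compared as normalized CPM per kb of exon, with exon lengths from GENCODE M21. In WT the order was *Epas1* (36.3 ± 0.587, SD, n = 2), *Vegfb* (25.0 ± 3.10), *Vegfa* (20.3 ± 1.08), *Hif1a* (18.2 ± 0.254), *Pecam1* (15.6 ± 1.29), *Cdh5* (12.5 ± 0.265), *Kdr* (11.9 ± 1.22), *Flt1* (6.69 ± 0.131), *Angpt2* (1.37 ± 0.358) and *Angpt1* (0.550 ± 0.0496). The neighbours *Cdh5* and *Kdr* overlapped and the other neighbours did not. In MYC-KI *Hif1a* led with 28.6 ± 0.675 (SD, n = 2), followed by *Epas1* with 22.6 ± 1.44, *Vegfa* with 18.6 ± 3.70 and *Vegfb* with 11.2 ± 1.40. *Pecam1* to *Angpt1* kept their WT order there, with *Kdr* (3.35 ± 1.24) and *Flt1* (2.77 ± 0.190) overlapping.

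Promoter sequence was looked up because both receptors fell together and *Hif1a* rose, and the 250 bases before the start are shown for the ligands, the receptors and *Hif1a* (RefSeq, GRCm38.p6, written 5′ to 3′ along the gene). RefSeq entries matched 5 of the 10 members. Capitals mark the motifs searched on both strands, which are the hypoxia response core as ACGTG or as GCGTG, the MYC-MAX E-box as CACGTG, which contains ACGTG, and 2 ETS forms, written as CCGGAA or as ACAGGAA. ETS factors are regulators of endothelial genes. The windows are chr17:46032378-46032627 for *Vegfa*, chr19:6987652-6987901 for *Vegfb*, chr5:75978456-75978705 for *Kdr*, chr5:147726012-147726261 for *Flt1* and chr12:73907617-73907866 for *Hif1a*.
Vegfa: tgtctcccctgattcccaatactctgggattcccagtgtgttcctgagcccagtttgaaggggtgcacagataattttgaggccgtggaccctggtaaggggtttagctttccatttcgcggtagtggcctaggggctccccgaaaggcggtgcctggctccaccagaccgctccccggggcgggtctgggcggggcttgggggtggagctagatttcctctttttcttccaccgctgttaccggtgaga
Vegfb: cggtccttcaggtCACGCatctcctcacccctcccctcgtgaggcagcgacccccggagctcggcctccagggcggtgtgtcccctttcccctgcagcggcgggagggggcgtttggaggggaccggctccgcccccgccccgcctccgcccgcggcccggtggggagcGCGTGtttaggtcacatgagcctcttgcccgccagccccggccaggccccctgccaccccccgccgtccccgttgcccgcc
Kdr: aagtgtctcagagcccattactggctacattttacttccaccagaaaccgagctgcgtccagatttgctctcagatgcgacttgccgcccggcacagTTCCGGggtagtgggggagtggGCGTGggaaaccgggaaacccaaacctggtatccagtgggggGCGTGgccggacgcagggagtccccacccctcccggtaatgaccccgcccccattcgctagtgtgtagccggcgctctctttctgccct
Flt1: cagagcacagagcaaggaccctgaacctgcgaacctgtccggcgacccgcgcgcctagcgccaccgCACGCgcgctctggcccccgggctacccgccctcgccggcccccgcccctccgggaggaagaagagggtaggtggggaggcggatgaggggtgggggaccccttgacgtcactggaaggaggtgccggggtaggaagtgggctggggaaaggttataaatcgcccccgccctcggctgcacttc
Hif1a: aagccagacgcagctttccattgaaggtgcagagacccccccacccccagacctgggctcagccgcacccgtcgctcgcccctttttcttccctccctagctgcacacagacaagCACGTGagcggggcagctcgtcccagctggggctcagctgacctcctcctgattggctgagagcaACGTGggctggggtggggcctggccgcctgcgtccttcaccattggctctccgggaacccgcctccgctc

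The *Hif1a* window held CACGTG at 135 to 130 bases before the start, a motif found in 6.02% of 32851 promoter windows of this length, and another ACGTG at 70 to 66 bases. ACGTG was present in 16.6% of all windows. GCGTG, present in 28.2%, was found at 2 places in *Kdr*, at 2 in *Vegfb* and once in *Flt1*. *Kdr* also held CCGGAA, present in 12.0%, and none of the 5 windows held ACAGGAA, present in 7.20%. The *Vegfa* window shown held none of these letters, and a second *Vegfa* start inside the gene, not shown, held ACGTG and GCGTG. The windows are rich in G and C, with 59.2% to 76.4% against a median of 52.4%. A match is a string of letters and not a binding site, and no factor was measured on this DNA.

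Genes around the members were read from 9 pathway lists with 148 further genes, of which 142 were tested. In MYC-KI 37 fell and 6 rose, beside 5.08% and 5.65% of all tested genes, and the median log2 fold change was -0.44. Counts by DESeq2 are to be read against its 8.23% higher and 9.49% lower, and counts at an unadjusted edgeR p under 0.05 against 17.7% higher and 16.4% lower of all tested genes. Among 6 other VEGF ligands and receptors, 2 fell and 0 rose (3 and 0 by DESeq2 and at an unadjusted p under 0.05). *Nrp1*, a co-receptor of KDR, had 120.9 and 104.2 normalized CPM in WT and 46.0 and 35.9 in MYC-KI (log2 fold change -1.46, SE 0.16, adjusted p = 0.0213). *Flt4*, the receptor of VEGF-C on lymphatic and some blood endothelium, had 20.2 in each WT sample and 5.81 and 7.61 in MYC-KI (-1.59, SE 0.19, adjusted p = 0.0237). *Nrp2* did not differ detectably (0.03, SE 0.14, adjusted p = 0.911), and its genotypes overlapped.

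On the angiopoietin and TIE axis, 5 of 6 tested genes fell and 0 rose, beside 5.08% and 5.65% of all tested genes. *Angpt4* and *Angptl4* were too low to test. *Tek*, the angiopoietin receptor, had 27.4 and 28.9 normalized CPM in WT and 9.20 and 9.87 in MYC-KI (log2 fold change -1.56, SE 0.13, adjusted p = 0.0175). *Ptprb*, the phosphatase VE-PTP that restrains TEK, fell from 115.9 and 129.1 to 38.2 and 39.6 normalized CPM (-1.65, SE 0.09, adjusted p = 0.0102). *Svep1* (-2.45) and *Angptl2* (-1.35) also fell. The receptor and its phosphatase thus had lower values in both transgenic samples than in either WT sample, and whether they differ from *Angpt1* or *Angpt2* in their change was not tested.

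Of 39 tested blood endothelial genes 21 fell and 0 rose, beside 5.08% and 5.65% of all tested genes, with a median log2 fold change of -1.02. DESeq2 called 25 lower and 0 higher (9.49% and 8.23% of all genes), and 26 were lower and 0 higher at an unadjusted p under 0.05 (16.4% and 17.7%). *Plvap*, which forms the diaphragms of fenestrated capillaries, was the most abundant, with 221.1 and 217.7 normalized CPM in WT and 91.0 and 70.5 in MYC-KI (log2 fold change -1.44, SE 0.15, adjusted p = 0.020). *Cyyr1* (-1.89), *She* (-1.89), *Rgcc* (-1.84) and *Icam2* (-1.70) had the lowest values among the called genes, and *Mcam* (-0.66, adjusted p = 0.278) overlapped between the genotypes. The summed level of the list was 1066 and 1052 normalized CPM in WT and 490 and 535 in MYC-KI, so both transgenic samples were alike. *Cldn5*, a defining junction gene of endothelium, had 2 to 6 counts in every sample, near the floor in WT also.

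The lymphatic, mural, NOTCH and inhibitor lists each held 1 called gene, beside 10.7% of all tested genes called in either direction. DESeq2 called 2 lymphatic, 3 mural and 3 inhibitor genes lower and 1 NOTCH gene higher, and at an unadjusted p under 0.05 these counts were 2, 4, 4 and 1. Of 5 tested lymphatic genes, *Reln* fell (log2 fold change -2.08, adjusted p = 0.0194), and *Lyve1* (-1.23, adjusted p = 0.194) and *Mmrn1* (-2.13, adjusted p = 0.0508) did not pass. Among 11 mural cell genes, which mark pericytes and vascular smooth muscle, *Vtn* fell (-2.01, adjusted p = 0.0195) and the median was -0.44. *Rgs5*, the most abundant of them, had 524.5 and 488.4 normalized CPM in WT and 319.0 and 383.7 in MYC-KI, and its log2 fold change of -0.53 did not pass (adjusted p = 0.0654). *Abcc9* did not pass either (-0.75, adjusted p = 0.0791). Of 10 NOTCH axis genes, *Hes1* rose (0.72, adjusted p = 0.0336) and *Notch1* did not pass (-0.28, adjusted p = 0.160). Of 11 angiogenesis inhibitors, *Col4a3*, a basement membrane collagen chain, fell from 430 and 375 counts to 18 and 13 (-5.01, adjusted p = 0.0158), while *Timp3* (-0.86, adjusted p = 0.110) and *Col18a1* (-0.37, adjusted p = 0.22) did not pass.

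**Figure D4:**
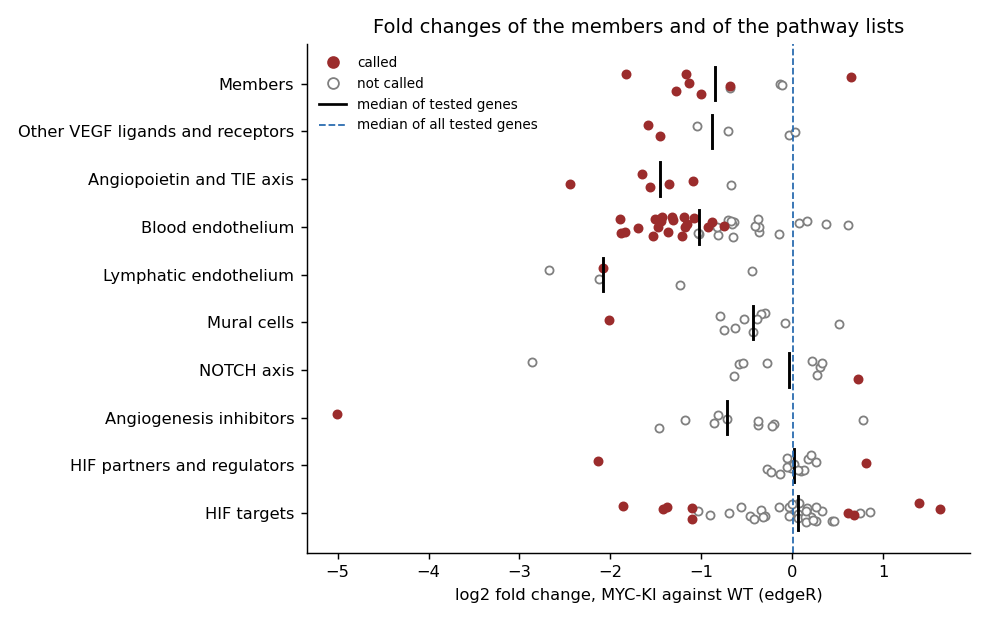
Log2 fold changes of MYC-KI against WT (x) are shown for the members and for the other tested genes of 9 pathway lists (y), with called genes filled, others open, and black bars at each list's median. The blood endothelium median lies at -1.02 and the HIF target median at 0.06, beside 0.01 over all tested genes (dashed).

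Of 15 HIF partners and regulators 1 rose and 1 fell, beside 10.7% of all tested genes called in either direction, with a median log2 fold change of 0.02. *Egln3*, a prolyl hydroxylase that marks HIF for degradation and is itself a HIF target, had 84.2 and 74.4 normalized CPM in WT and 123.4 and 154.1 in MYC-KI (log2 fold change 0.81, SE 0.14, adjusted p = 0.0400). *Arnt2* fell from low levels (-2.14, SE 0.44, adjusted p = 0.049994), and the coactivator *Ep300* did not pass (-0.14, adjusted p = 0.268).

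HIF target genes were called in both directions. Of 39 tested targets 4 rose and 5 fell, beside 5.65% and 5.08% of all tested genes. DESeq2 called 5 higher and 7 lower (8.23% and 9.49% of all genes), and 7 were higher and 10 lower at an unadjusted p under 0.05 (17.7% and 16.4%). The median was 0.06, beside 0.01 over all tested genes. *Car12* (log2 fold change 1.63, adjusted p = 0.0218) and *Tfrc*, the transferrin receptor (1.40, adjusted p = 0.0193), rose most among the called genes. *Pfkfb3* (-1.86, adjusted p = 0.0228) and the collagen hydroxylase *P4ha2* (-1.42, adjusted p = 0.0228) fell most. *Hk2*, a hexokinase of glycolysis, had 44.9 and 45.0 normalized CPM in WT and 79.5 and 64.6 in MYC-KI (0.68, SE 0.13, adjusted p = 0.0421). *Car9*, a carbonic anhydrase widely used as a hypoxia marker, had 197.3 and 208.9 normalized CPM in WT and 86.8 and 70.0 in MYC-KI (-1.37, SE 0.13, adjusted p = 0.0195). The glycolytic targets *Aldoa* (-0.04, adjusted p = 0.904) and *Ldha* (0.20, adjusted p = 0.263) did not differ detectably. The other called targets were *Mxi1* (0.62, higher), *Adm* (-1.10, lower) and *Vldlr* (-1.10, lower). *Hk2*, *Car9*, *Mxi1*, *Adm* and *Vldlr* were named outside the rule, after their values were seen.

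Markers of several other cell types also fell, and their part in the falls of the endothelial genes was not tested. Counts by edgeR are to be read against 5.08% lower and 5.65% higher of all tested genes. For DESeq2 the shares are 9.49% and 8.23%, and at an unadjusted edgeR p under 0.05 they are 16.4% and 17.7%. Parietal cell markers fell for 11 of 12 genes, with a summed level of 15065 and 15168 normalized CPM in WT and 1279 and 1312 in MYC-KI. Chief cell markers fell for 5 of 7 and surface mucous markers for 4 of 5. *Gif*, a chief cell product in mice, stands in the parietal and the chief list and is counted in both. Fibroblast markers fell for 3 of 6 (6 by DESeq2), with a median log2 fold change of -1.40 and sums of 2352 and 2642 against 684 and 1189. Smooth muscle markers fell for 0 of 8 by edgeR, by DESeq2 or at an unadjusted p under 0.05 (median -0.62), with sums of 8851 and 5685 in WT and 3002 and 6188 in MYC-KI. Leukocyte markers fell for 3 of 7 tested genes, *Adgre1*, *Csf1r* and *Itgam*. The remaining tested leukocyte genes were not called, and each overlapped between the genotypes. Their log2 fold changes were -0.04 for *Ptprc*, -0.16 for *Cd68*, 0.12 for *Cd3e* and -0.28 for *Cd79a*. Acinar markers fell for 2 of 3 tested (3 by DESeq2). Adipocyte markers fell for 2 of 6 (5 by DESeq2, and 6 at an unadjusted p under 0.05), with sums of 186 and 466 in WT and 34.2 and 56.3 in MYC-KI. Among red cell and platelet genes 6 were tested, of which the platelet gene *Itga2b* rose and the globin gene *Hba-a1* fell, while DESeq2 called 1 higher and 4 lower. The summed level of the list was 239 and 75.6 normalized CPM in WT and 32.8 and 35.1 in MYC-KI, and *Hba-a1* had 104.1 and 38.3 normalized CPM in WT and 10.9 and 12.8 in MYC-KI. The platelet gene *Ppbp* had no counts. Neck mucous (3 genes), squamous (8) and sex marker (5) lists held no gene called by edgeR, and 1 squamous gene was higher at an unadjusted p under 0.05, while DESeq2 called 1 squamous gene higher and 1 sex gene lower. The squamous sum was 2420 and 1374 in WT and 812 and 4122 in MYC-KI. MYC-KI replicate 2 thus held more muscle and squamous RNA than replicate 1, while the endothelial sums of the pair were 490 and 535.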

How the data were processed

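Stomach RNA-seq counts of 2 WT and 2 MYC-KI mice were analysed, while the series' design text speaks of triplicates. The authors deposited raw read counts, not normalized, for 46095 gene symbols, and no row lacked a name. HISAT2 and mm10 are named in the submitters' processing notes, and the counting tool, annotation and strand setting are not given in the sources used here. The columns were mapped to samples by their titles. The MYC-KI counts were reassigned to the names sorted by character code. The members and lists were chosen with earlier results of these data known.

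The quasi-likelihood test of edgeR 4.0.16 (R 4.3.3) was fitted to the 17643 genes kept by filterByExpr, with TMM factors and genotype as the only term, and p-values were adjusted by the Benjamini-Hochberg method. The SE was taken from the fold change and the F statistic of each gene, and 95% intervals use the degrees of freedom of that test. The 9 pathway lists and 12 marker lists are described without a set test. Named genes are the members and, per pathway list, up to 4 called genes with the largest absolute log2 fold change and the 2 most abundant. Marker lists are parietal, chief, surface mucous, neck mucous, smooth muscle, fibroblast, leukocyte, blood and platelet, adipocyte, pancreatic acinar, squamous and sex genes. Alternatives were the table as deposited, DESeq2 1.42.0, its size factors in edgeR, library size only, no filter, a minimum of 10 counts, the replicate block, other fold thresholds and leaving out each sample. Tests were checked on counts simulated with a smaller spread between replicates than the common one of these data. That check does not measure what the tests can detect here.

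Gene coordinates and exon lengths come from GENCODE M21 (GRCm38, the assembly that mm10 names). With 30260305 to 41463647 counts per sample, the angiopoietins have the fewest counts and the least precise fold changes among the members.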

Additional observations from a re-analysis of the deposited data

How the results depend on the processing

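Calls of members (1 higher, 6 lower), of pathway genes (6 higher, 37 lower) and of all tested genes (996 higher, 896 lower) by edgeR were recomputed under each alternative. In the table as deposited, where names and MYC-KI counts are out of register, 2 and 6 members, 38 and 80 pathway genes, and 9422 and 9158 genes in all were called, and the log2 fold changes were 1.99 for *Angpt1*, 3.98 for *Angpt2*, -0.43 for *Hif1a* and 0.33 for *Pecam1*. DESeq2 called the same 7 members, 7 and 49 pathway genes, and 1502 and 1732 genes in all. Library size alone moved the median of all genes to 0.235 and called 2272 genes higher and 739 lower, with 1 and 5 members, and gave 0.091 for *Vegfa* and 0.11 for *Angpt2*, both below that median and neither called. With a fold threshold of 2 (log2 above 1), 0 and 5 members, 2 and 34 pathway genes, and 464 and 649 genes in all were called. Deviations from the genotype mean correlated at 0.0639 between WT replicate 1 and MYC-KI replicate 1 (17643 genes). With 2 samples per genotype the other pair mirrors this value, so it cannot settle whether the replicate numbers pair the samples. The replicate block called 0 and 0 members, 1 and 2 pathway genes, and 27 and 87 genes in all. The adjusted p of the 7 members lay between 0.0541 and 0.0718 in that edgeR fit. At an unadjusted p under 0.05 it gave 1 and 6 members, beside 2594 and 2584 of 17643 genes. Leaving out each sample gave 0 to 1 member higher and 0 to 6 lower, 0 to 5 and 0 to 47 pathway genes, and 0 to 1064 and 0 to 1406 genes in all, with 0 from the fits without WT replicate 1 or WT replicate 2, where at an unadjusted p under 0.05 there were 1 and 6 members, beside 1814 and 1740 genes in all without WT replicate 1 and 1856 and 1554 without WT replicate 2. Over the 4 fits that leave out a sample *Vegfa* ranged from -0.35 to 0.059 and *Angpt2* from -0.48 to 0.18. The cause of these changes was not tested. Other filters and DESeq2 size factors called 1 and 6 members. Without WT replicate 1 and without WT replicate 2 the log2 fold changes were -1.29 and -1.26 for *Flt1*, 0.66 and 0.63 for *Hif1a* and -1.03 and -0.99 for *Cdh5*, close to the reported values, while the adjusted p changed. Fits that leave out a sample take the spread from 1 genotype alone, and 2 samples per genotype limit what can be detected.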
